A study of Mus musculus with 68 samples.

Results

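Apobec1 and Apobec3, the 2 genes of the APOBEC cytidine deaminase family found in these tables, were followed through mouse embryonic fibroblasts (MEFs, primary cells grown from embryos) of 13 genotypes. They are 2 of the 13378 genes in the tables, and they were chosen by name because earlier results of these data had shown that they vary between strains, so their own levels and changes are given as a description, with no test. Of the 13 genotypes, 8 are the founder strains of the Collaborative Cross, namely A/J (A), C57BL/6J (B6), 129S1Sv/ImJ (129), NOD/ShiLtJ (NOD), NZO/H1LtJ (NZO), CAST/EiJ (CAST), PWK/PhJ (PWK) and WSB/EiJ (WSB). The other 5 are F1 crosses of a B6 mother with a CAST, 129, NOD, NZO or WSB father (xCAST, x129, xNOD, xNZO and xWSB). Each genotype was grown for 4 h with 2 ug/ml of tunicamycin (TM), which blocks N-linked glycosylation and so causes stress in the endoplasmic reticulum (ER), or with 0.1% of its solvent DMSO (control). Of the 68 libraries, 40 are from founders and 28 from crosses, with 2 or 3 for each treatment of a genotype, and every genotype stands on cells pooled from female embryos of 1 litter. A difference between genotypes therefore cannot be told apart from a difference between those cultures, and the spread between libraries is that of parallel treatments of 1 culture.

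APOBEC1 turns cytidine into uridine in messenger RNA. It is best known for editing the apolipoprotein B transcript in the intestine, where it acts with an RNA-binding partner, and it also edits 3′ untranslated regions in macrophages and other cells. Mouse APOBEC3 deaminates cytidine in the DNA that retroviruses make by reverse transcription and so restricts them, and its gene is the one behind a locus for recovery from infection with Friend virus, at which inbred strains differ. Both are studied mostly in blood and gut, and fibroblasts are not a main site of either.

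In GRCm38, Apobec1 (ENSMUSG00000040613) lies at chr6:122577792-122602444 on the minus strand with 9 annotated transcripts. Apobec3 (ENSMUSG00000009585) lies at chr15:79891659-79915906 on the plus strand with 20, and its last bases overlap the 3′ end of Cbx7 (chr15:79915807-79971119) on the other strand. Whether reads were counted by strand is not given in the sources used here, so reads in that overlap could belong to either gene; Cbx7 itself had group means between 0.53 and 2.83 CPM (counts scaled to a library size that was itself adjusted by TMM). The promoter windows below (RefSeq, GRCm38.p6, which is the B6 sequence) are shown because the level of both genes differed between genotypes and that of Apobec1 between treatments. Each runs 5′ to 3′ on the strand of the gene, from 250 bases before a RefSeq start to 10 bases after it, and capitals mark every match to a searched motif on either strand.

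Apobec1, chr6:122602435-122602694, minus strand: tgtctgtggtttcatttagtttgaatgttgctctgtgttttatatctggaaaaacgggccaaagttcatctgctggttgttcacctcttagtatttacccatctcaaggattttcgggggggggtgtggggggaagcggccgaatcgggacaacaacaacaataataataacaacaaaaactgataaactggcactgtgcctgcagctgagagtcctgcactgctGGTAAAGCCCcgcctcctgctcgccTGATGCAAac
Apobec3, first RefSeq start, chr15:79892158-79892417, plus strand: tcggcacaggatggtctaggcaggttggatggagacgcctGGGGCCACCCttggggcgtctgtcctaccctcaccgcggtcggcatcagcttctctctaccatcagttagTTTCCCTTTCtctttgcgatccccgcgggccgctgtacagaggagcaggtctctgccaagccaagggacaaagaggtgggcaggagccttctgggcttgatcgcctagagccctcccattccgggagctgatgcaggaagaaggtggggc
Apobec3, second RefSeq start, chr15:79894773-79895032, plus strand: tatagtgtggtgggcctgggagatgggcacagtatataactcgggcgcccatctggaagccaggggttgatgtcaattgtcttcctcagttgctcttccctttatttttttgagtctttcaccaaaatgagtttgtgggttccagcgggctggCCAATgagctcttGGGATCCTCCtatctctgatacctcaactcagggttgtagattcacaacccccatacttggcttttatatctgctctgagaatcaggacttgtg

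The motifs were the C/EBP-ATF element of stress-regulated genes (TGATGNAA), an NF-kB half-palindrome (GGG, then 5 bases of any kind, then CC), the interferon-stimulated response element (GAAA, 2 bases of any kind and GAAA again), the ER stress element (CCAAT, 9 bases of any kind, then CCACG), the unfolded protein response element (TGACGTGG) and the CCAAT box, which is contained in the ER stress element. The Apobec1 window holds the C/EBP-ATF element as TGATGCAA beginning at the start base itself, a motif found in 3.59% of the 32851 promoter windows of this length, and an NF-kB half-palindrome between bases -25 and -16. The first Apobec3 window holds an NF-kB half-palindrome on both strands between bases -210 and -201 and, between bases -140 and -131, the interferon-stimulated response element, which 3.07% of windows hold. The second Apobec3 window holds a half-palindrome between bases -84 and -75 and a CCAAT box between bases -97 and -93. The half-palindrome and the CCAAT box are common, with 46.9% and 34.6% of windows holding them. Neither gene's windows hold the ER stress element (0.116% of windows) or the unfolded protein response element (0.603%). These matches describe the letters of the B6 sequence, and the sequences of the other strains were not compared here.

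The cells carried fibroblast markers in every group. The summed level of 7 fibroblast markers (among them Col1a1, Col1a2, Vim and Pdgfrb) ran between group means of 12623 and 34400 in founders and 11981 and 20446 in crosses, where levels are TMM-scaled CPM that were not divided by gene length, so that levels of different genes are not compared. The surface marker Thy1 was the exception in CAST, at 2.49 in control and 1.65 in TM libraries against control means of 104 to 571 in the other founders. Of 10 myeloid markers, 9 were in the founder tables, with group sums of 7.54 to 65.5, and 5 in the F1 tables, with sums of 5.67 to 17.1; the pan-leukocyte gene Ptprc stayed at or below a group mean of 1.18 in founders. The 5 lymphoid markers were in neither set, while endothelial sums were 2.52 to 11.6 in founders and 0.928 to 8.30 in crosses, and epithelial sums 4.10 to 72.0 and 0.995 to 22.8. Some control libraries stood apart from their own group for these markers. WSB control replicate 2 had an epithelial sum of 46.3 and a myeloid sum of 36.9 against 4.85 and 8.53 in the other WSB control library, and A control replicate 1 an epithelial sum of 65.7 against 26.8 and 30.0. xNOD control replicate 3 had an endothelial sum of 18.7 against 2.92 and 3.28, with higher epithelial (26.5) and myeloid sums (25.6), and xNZO control replicate 3 an endothelial sum of 10.4 against 3.09 and 3.11, with a myeloid sum of 20.9. In whole cultures, fewer cells of a type and less RNA per cell cannot be told apart.

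Apobec1 was low in control founder cells, between 1.15 and 2.98 in the 18 libraries. With TM it stood between 4.00 and 8.19 in 7 strains, and in CAST it stayed near the control level. In CAST the control libraries held 1.32 and 1.40 and the TM libraries 1.48 and 1.81, a log2 change of 0.25 (SE 0.30), or 1.19-fold on the log2(value + 0.1) scale used throughout. These values rest on 16 to 27 reads a library. The TM libraries lay just above the control libraries without overlap, as they did for 28.2% of all 13197 genes in CAST.

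The other strains were all well above that. NOD had 1.15 and 1.51 in control and 5.59, 5.72 and 6.33 in TM libraries, a log2 change of 2.07 (SE 0.22), or 4.21-fold. Strain A, with control libraries at 1.35, 1.47 and 2.28 and TM libraries at 6.90, 7.40 and 7.49, changed by the same amount, 2.07 (SE 0.28). WSB went from 1.18 and 1.74 to 5.67, 5.87 and 6.63, a log2 change of 2.01 (SE 0.30). NOD, A and WSB thus had the largest log2 changes. The higher of the WSB control values belongs to the library with other cells' markers. Without that library the log2 change in WSB was 2.27, and without the other WSB control library 1.74.

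In 129 the control libraries held 1.15 and 1.23 and the TM libraries 4.00, 4.15 and 4.28, a log2 change of 1.72 (SE 0.24). PWK had 2.56, 2.57 and 2.88 against 7.35, 7.38 and 8.19, a change of 1.48 (SE 0.16). B6, the mother of every cross, had 2.43 and 2.48 against 6.32 and 6.59, a change of 1.36 (SE 0.20). NZO, at 2.10 and 2.98 against 5.18, 5.93 and 6.56, changed by 1.20 (SE 0.23). The strains with the higher control level (B6, NZO and PWK) were thus those with the smallest log2 changes after CAST.

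**Figure D1:**
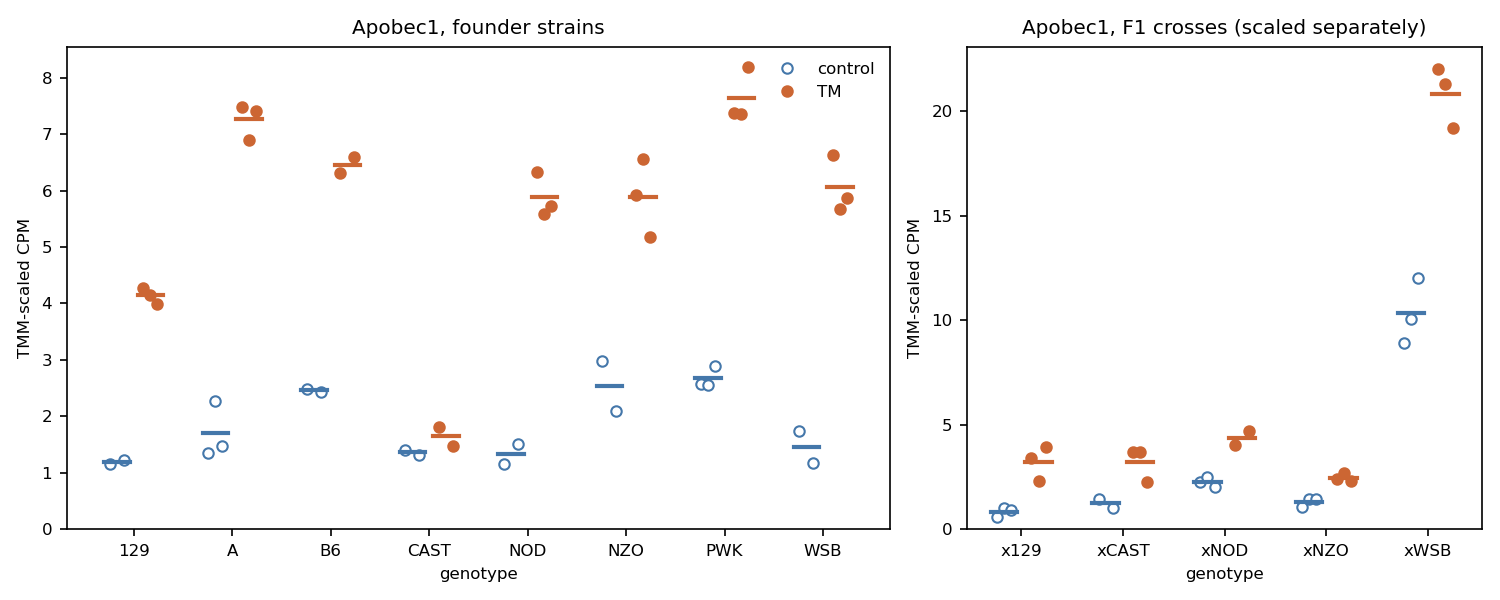
Apobec1 level in TMM-scaled CPM (vertical axes, from 0) in every control (open points) and TM library (filled points) of the founder strains and of the F1 crosses (horizontal axes), with a short line at each group mean. CAST TM libraries at 1.48 and 1.81 lie beside their controls, and the xWSB libraries, between 8.92 and 22.0, lie above those of every other cross.

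In each of the 8 founders the TM libraries lay above the control libraries without overlap, as for 4.12% of genes. Ordered by control mean, 129 (1.19), NOD (1.33), CAST (1.36), WSB (1.46) and A (1.70) formed a low series whose neighbours overlapped, and B6 (2.46), NZO (2.54) and PWK (2.67) a higher one. B6 and PWK were separated from the low series without overlap, whereas the lower NZO library (2.10) lay under the highest A library (2.28). The highest control mean was 2.25 times the lowest. With TM the order was CAST (1.65), then 129 (4.14), then NOD (5.88), NZO (5.89), WSB (6.06) and B6 (6.46), then A (7.26) and PWK (7.64), with overlap only inside the last 2 groups, and the span widened to 4.64 times. Under TM, no CAST library reached the lowest library of any other founder, as for 6.02% of genes. CAST control libraries lay inside the range of the others. Against the mean of the other 7 strains, Apobec1 in CAST differed on the log2 scale by -0.38 (SE 0.16) in control cells and by -1.83 (SE 0.16) with TM, where the others were 3.56-fold higher. Its TM response differed by -1.45 (SE 0.23); in the fit over all genes 0.00758% of genes passed the test for a lower response in CAST and the same share for a higher one, and since the choice of these genes rests on that contrast, nothing is read from it.

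All 5 ER stress genes tested were induced in CAST, where 2.54% of all genes were (limma, Benjamini-Hochberg adjusted p below 0.01 and at least 1.5-fold, the rule for a TM change throughout). The chaperone gene Hspa5 rose by 2.54 on the log2 scale, the transcription factor gene Ddit3 by 3.59, the ER-associated degradation gene Herpud1 by 4.16, Xbp1 by 1.28 and Hyou1 by 1.36. Across the 8 founders the mean changes of these 5 genes had a median of 2.82 and in the crosses of 2.90, while the median over all genes tested lay between -0.04 and 0.01 in founders and between -0.06 and 0.00 in crosses. Against the other founders the TM responses of these 5 genes in CAST had a median difference of -0.31 on the log2 scale. By limma 0 of the 5 responses passed and 0 had an unadjusted p under 0.05, where 0.00758% of all genes passed as lower. In control cells the median difference of the 5 was -0.23, and 0 of 5 passed. At the TM level 2 of the 5 were lower in CAST than in the other strains, where 10.2% of all genes were. They were Ddit3, by -0.84 (SE 0.21, limma, adjusted p = 0.00287), and Herpud1, by -0.40 (SE 0.10, adjusted p = 0.00288). The part of these differences in the Apobec1 change was not tested.

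Myeloid cells are a known site of Apobec1. In CAST control cells 1 of 9 myeloid markers was lower than in the other founders, where 9.52% of all genes were, and none passed as higher. It was the receptor gene Csf1r, by -0.88 on the log2 scale (SE 0.25, limma, adjusted p = 0.0091). The median difference of the 9 markers was 0.36, and the summed level was 29.2 to 32.7 against 8.53 to 69.2. With TM 2 of 9 were higher, where 7.97% of all genes were. They were Lyz2 by 1.60 (SE 0.41, adjusted p = 0.00339) and Cd68 by 1.30 (SE 0.37, adjusted p = 0.00786). The median difference of the 9 with TM was 0.53, and the sum was 23.1 to 26.5 in CAST and 7.44 to 55.7 in the others. WSB, whose TM libraries had the lowest myeloid sums (7.44 to 7.65), had a log2 change of Apobec1 of 2.01. The part of myeloid cells in the Apobec1 level was not tested.

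In the F1 crosses TM libraries were again above every control library in each of the 5, as for 4.53% of genes. The cross with a CAST father, xCAST, had 1.01 and 1.45 in control and 2.26, 3.69 and 3.71 in TM libraries, a log2 change of 1.31 (SE 0.30). x129 had 0.596, 0.901 and 1.03 against 2.29, 3.39 and 3.95, the largest log2 change of the crosses at 1.81 (SE 0.27). xNOD, at 2.00, 2.25 and 2.48 against 4.03 and 4.69, changed by 0.93 (SE 0.20). xNZO, at 1.04, 1.42 and 1.42 against 2.30, 2.41 and 2.66, changed by 0.89 (SE 0.24). Without the control libraries that stood apart for other cells' markers, the change was 0.85 in xNOD and 0.96 in xNZO. The estimate for the cross of CAST thus lay above those for the crosses of NOD and NZO, by not much more than its own standard error of 0.30, although CAST itself changed by 0.25 and NOD and NZO by 2.07 and 1.20.

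xWSB stood apart from the other crosses in level. Its control libraries held 8.92, 10.0 and 12.0 and its TM libraries 19.2, 21.3 and 22.0, counted from 86 to 377 reads, where the libraries of the other crosses had 13 to 107 reads. Its log2 change was 1.01 (SE 0.19), inside the range of the others. Every xWSB library lay above every library of the other crosses under the same treatment, as for 5.73% of genes in control and 6.9% in TM libraries. Against the mean of the other 4 crosses Apobec1 was 7.37-fold higher in xWSB control cells (log2 difference 2.88, SE 0.18) and 6.33-fold higher with TM (2.66, SE 0.18), and its response differed by -0.22 (SE 0.26). The control order was x129 (0.841), xCAST (1.23) and xNZO (1.29), each overlapping the next, then xNOD (2.24) and then xWSB (10.3), 12.3 times the lowest. With TM it was xNZO (2.46), x129 (3.21) and xCAST (3.22), then xNOD (4.36) and xWSB (20.8).

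In xWSB controls the myeloid sum lay inside the range of the other crosses. Over 5 markers it was 9.53 to 14.2 in xWSB controls and 6.74 to 25.6 in those of the other crosses, and Lyz2 averaged 3.79 in xWSB against 1.16 to 7.13. Other marker levels did differ in xWSB. Epithelial sums were 0.502 to 1.24 in its controls and at least 2.16 in the others, with Krt18 lower by -2.69 (SE 0.22, limma, adjusted p = 7.85e-10). Endothelial sums were 0.826 to 1.13 in its controls and at least 1.50 in the others. Of the markers tested, 2 of 2 epithelial and 1 of 5 endothelial were lower, where 11.9% of all genes were. Among 7 fibroblast markers 2 were higher, where 8.54% of all genes were. The receptor gene Pdgfra, 1 of these 2, was higher by 1.25 (SE 0.15, limma, adjusted p = 7.35e-07). Their part in the Apobec1 level was not tested.

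Taking both sets, Apobec1 was above every control library in the TM libraries of all 13 genotypes, a pattern that 2.62% of the 12622 genes shared by both sets had. Its log2 change ran from 0.25 to 2.07 in founders, with a median of 1.60, and from 0.89 to 1.81 in crosses, with a median of 1.01.

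Apobec3 behaved otherwise. It differed between founder strains before treatment by more than Apobec1 did and changed little with TM in any of them. In the crosses the control span went the other way, at 3.67 times for Apobec3 and 12.3 times for Apobec1. CAST controls held 13.8 and 16.5 and 129 controls 13.1 and 14.8, the highest of the founders, and B6 controls held 2.23 and 2.30, the lowest. NOD controls were at 10.9 and 10.9 and A controls at 9.25, 10.8 and 12.7, both below CAST without overlap. The remaining strains were low, with PWK at 3.99, 4.91 and 5.53, NZO at 4.20 and 4.43 and WSB at 3.47 and 3.53. The order of control means was thus B6 (2.26), WSB (3.50), NZO (4.32) and PWK (4.81), then NOD (10.9) and A (10.9), then 129 (14.0) and CAST (15.2), a span of 6.70 times, and only NZO with PWK, NOD with A and 129 with CAST overlapped as neighbours.

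With TM the same strains were high and low. B6 stayed lowest at 2.25 and 2.45. WSB (3.70, 3.92 and 4.42), PWK (3.24, 4.92 and 5.44) and NZO (4.66, 5.38 and 5.64) followed, where PWK overlapped both others and WSB lay below NZO. A (7.34, 9.09 and 11.2), NOD (9.97, 10.1 and 11.1), 129 (10.6, 13.4 and 13.5) and CAST (12.5 and 13.6) were above all of these, each overlapping the next, and the span was 5.56 times. B6 lay below every library of the other founders in both treatments, as for 2.24% of genes in control and 1.24% in TM libraries.

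Against the mean of the other 7 strains, Apobec3 in CAST was 2.50-fold higher in control cells (log2 difference 1.32, SE 0.16) and 2.18-fold higher with TM (1.13, SE 0.16). In B6, a comparison chosen after seeing the data, the others were 3.36-fold higher in control cells (-1.75, SE 0.16) and 3.13-fold higher with TM (-1.65, SE 0.16). Differences in the TM response were near 0 on this scale, at -0.20 (SE 0.22) for CAST and 0.10 (SE 0.22) for B6. Apobec1 in B6 control cells differed the other way, by 0.54 (SE 0.16). CAST thus had the highest Apobec3 mean of the founders with the lowest Apobec1 mean under TM, and B6 the lowest Apobec3 mean with Apobec1 above the average of the others. Strain A was high for both genes, with an Apobec3 control mean of 10.9 and an Apobec1 TM mean of 7.26. A relation between the levels of the 2 genes was not tested.

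**Figure D2:**
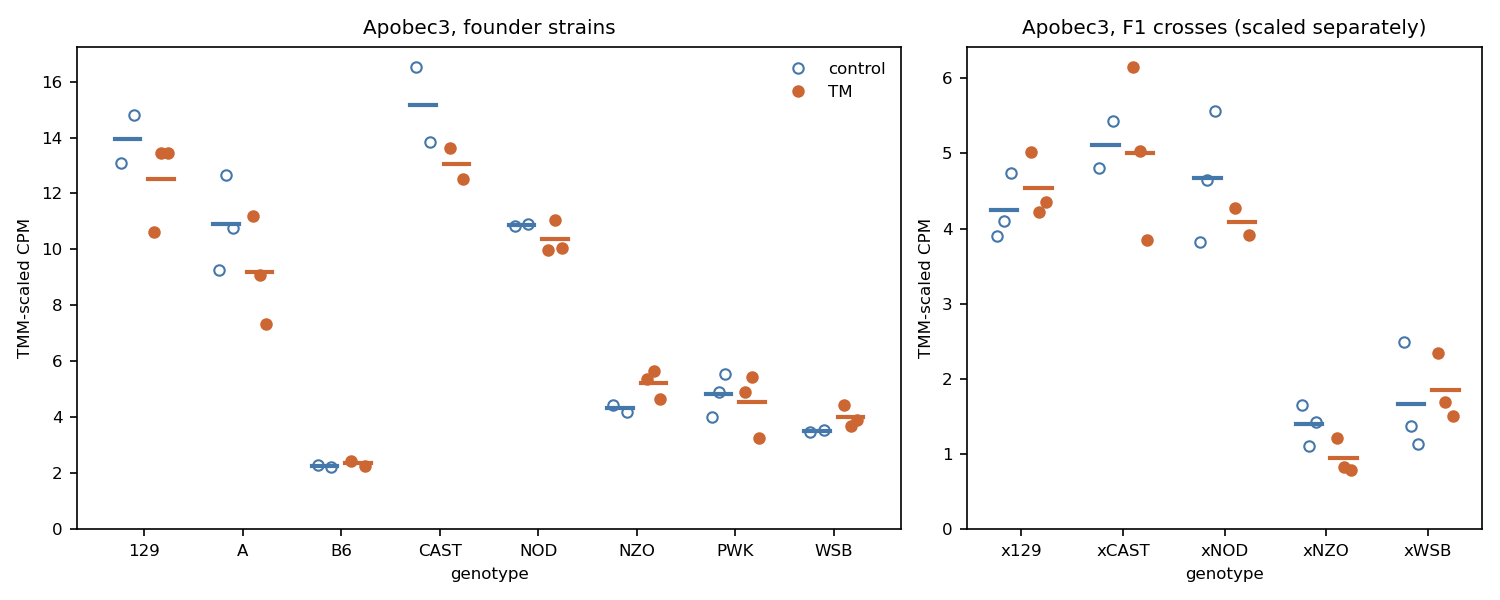
Apobec3 level in TMM-scaled CPM (vertical axes, from 0) in every control (open points) and TM library (filled points) of the founder strains and of the F1 crosses (horizontal axes), with a short line at each group mean. Control and TM libraries of a genotype lie close together, while strains range from B6 at 2.23 to CAST at 16.5.

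The log2 change of Apobec3 lay between -0.25 and 0.27 in the 8 founders, with a median of -0.09, and its standard errors (0.15 to 0.27) were of that size. The TM libraries overlapped the control libraries in 129, A, B6, NOD and PWK. In CAST they lay below them (change -0.21, SE 0.16), as for 31.4% of all genes in that strain. In NZO (0.27, SE 0.19) and WSB (0.19, SE 0.27) they lay above by a small gap, as for 19% and 24.9% of genes.

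The sum of the myeloid markers in control libraries was highest in A (58.3 to 69.2), where the Apobec3 control mean was high at 10.9. It was next in B6 (41.5 to 42.8), which had the lowest Apobec3. In 129 and CAST, which had the highest Apobec3, the sum was 17.7 to 19.3 and 29.2 to 32.7. WSB control replicate 2, with its myeloid sum of 36.9, had an Apobec3 level of 3.47, beside 3.53 in the other WSB control library. The part of myeloid cells in the Apobec3 level was not tested.

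In the crosses Apobec3 was low wherever the father was NZO or WSB and higher where it was CAST, NOD or 129. xCAST controls held 4.80 and 5.43 and its TM libraries 3.85, 5.03 and 6.15. xNOD had 3.82, 4.64 and 5.57 against 3.91 and 4.27, and x129 3.90, 4.10 and 4.74 against 4.23, 4.36 and 5.02. With TM these crosses overlapped one another, and in control cells xNOD overlapped both others while x129 lay just below xCAST. Without xNOD control replicate 3, the library with other cells' markers, the change of Apobec3 in xNOD was -0.04. xWSB had 1.13, 1.38 and 2.49 against 1.50, 1.70 and 2.34, and xNZO 1.11, 1.42 and 1.65 against 0.792, 0.829 and 1.21, so that in control cells both lay below the other crosses without overlap. Control and TM libraries overlapped in all 5 crosses, and the log2 change ran from -0.52 (SE 0.31) in xNZO to 0.19 (SE 0.36) in xWSB. Against the mean of the other crosses, Apobec3 in xCAST was 1.95-fold higher in control cells (log2 difference 0.96, SE 0.23) and 2.02-fold higher with TM (1.02, SE 0.20), and its response differed by 0.05 (SE 0.31).

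**Figure D3:**
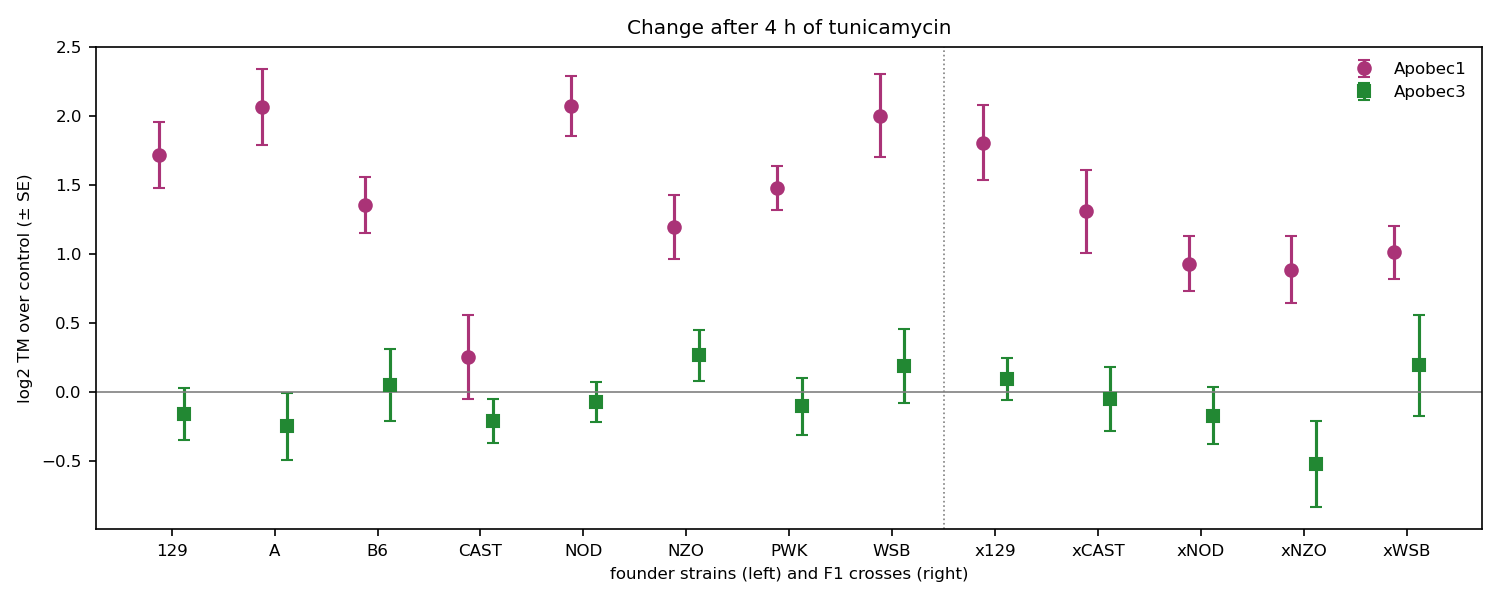
Log2 change from control to TM (vertical axis, ± SE) of Apobec1 and Apobec3 in each founder strain and F1 cross (horizontal axis), with a line at 0. Apobec1 lies between 0.89 and 2.07 except in CAST (0.25), and Apobec3 lies between -0.52 and 0.27.

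Setting a cross beside its parents needs a scale that both sets share, since they were normalized apart. Each value was therefore divided by the library's total over genes, giving CPM of the gene reads alone, a scale chosen after seeing the data; founders and crosses remain separate tables and this is a description. On it, Apobec1 with TM was 4.03 in xCAST, between CAST (1.75) and B6 (6.70) and close to their midpoint of 4.23. In control cells it was 1.50 in xCAST, 1.40 in CAST and 2.50 in B6. The log2 change of xCAST, 1.31, was near that of B6 (1.36) and above the parents' midpoint of 0.81. In the other crosses the change was 1.81 in x129 beside a midpoint of 1.54, 0.93 in xNOD beside 1.72, 0.89 in xNZO beside 1.28 and 1.01 in xWSB beside 1.68, so the estimates for the crosses of NOD, NZO and WSB were below both parents, with standard errors of 0.19 to 0.24 for these crosses beside 0.20 for B6 and 0.23 for NZO.

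The level of Apobec1 in xWSB was outside both parents by a wide margin. It was 12.4 in control cells against 2.50 in B6 and 1.42 in WSB, 4.95 times the higher parent, and 25.0 with TM against 6.70 and 5.93. xNZO went the other way, with 1.67 in control and 3.24 in TM libraries, below both parents (B6 2.50 and 6.70, NZO 2.53 and 5.85). xNOD was above both in control cells (2.86 against 2.50 and 1.37) and overlapped them with TM, and x129 and xCAST lay within or overlapped the parental range throughout.

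Apobec3 in the crosses of the high strains lay between the parents and nearer to B6. In control cells it was 6.25 in xCAST against 15.7 in CAST and 2.30 in B6, 5.22 in x129 against 14.2 in 129, and 5.97 in xNOD against 11.2 in NOD. All 3 were below the parental midpoint, which was 9.00 for xCAST, 8.25 for x129 and 6.75 for xNOD. xWSB, at 1.97 against 3.40 in WSB, overlapped the parents, and xNZO was below both in control (1.80 against 2.30 and 4.29) and TM libraries (1.24 against 2.44 and 5.19). xNZO was thus below both parents for both genes. For its allele counts the paper mapped F1 reads to the genomes of both parents. Whether the F1 levels used here rest on that mapping is not given in the sources used here. The part of alignment in the differences between crosses and parents was not tested.

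The genes whose means over the 16 founder groups ran most like those of Apobec1 were Kansl2 (Pearson's r = 0.931 among 11239 genes compared), Tti2 (0.928), Filip1l (0.914), Spty2d1 (0.914) and Cass4 (0.909). Over the 10 F1 groups, which did not enter that choice, r was 0.821 for Kansl2, 0.591 for Cass4, 0.575 for Tti2, 0.380 for Spty2d1 and -0.349 for Filip1l. For Apobec3 the most alike were Tpmt (0.888), Anxa4 (0.855), Mmp9 (0.852), Gcsh (0.842) and Gpn3 (0.834), with r over the F1 groups of -0.01, 0.872, -0.349, -0.01 and 0.558. Anxa4, a calcium-dependent phospholipid-binding annexin, had a B6 control mean of 34.8 against 43.9 to 67.6 in the other founders, a difference the choice of the gene rests on, and in the crosses it was higher in xCAST than in the other crosses by 0.46 (SE 0.09, adjusted p = 0.000263). These groups share libraries, strains and depth, and r is a description.

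Around the deaminases, lists of related genes (58 genes in all, of which 52 are in the founder and 51 in the F1 tables) were tested with the fit over all genes. The family genes Apobec2 and Apobec4 are not in the tables. With TM, 6 list genes passed as induced in at least 1 founder (Dnajb11, Zc3hav1, Nfkb1, Nfkb2, Relb and Rel) and 5 as lowered (Adarb1, Mov10, Trim25, Ifitm2 and Stat2), where 8.15% and 7.85% of all genes tested did. In the crosses 5 were induced (Dnajb11, Nfkb1, Nfkb2, Relb and Rel) and 4 lowered (Mov10, Trim25, Ifitm2 and Ifitm3), against 7.05% and 5.47% of all genes. In single founders the share of all genes induced was 0.346% in A, 5.04% in B6, 2.54% in CAST, 1.45% in NOD, 6.36% in PWK and 2.85% in WSB, and the share lowered 3.22% in B6, 4.3% in PWK and 4.2% in WSB. In single crosses 4.88% were induced in x129, 2.52% in xCAST, 3.69% in xNOD and 1.44% in xNZO, and 1.36% lowered in x129 and 4.6% in xNOD. The counts of lowered genes moved with single libraries, from 5 to 9 in founders without NZO TM replicate 3, and from 4 to 2 in crosses without x129 control replicate 1 or to 8 without xNOD TM replicate 2.

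APOBEC1 acts with RNA-binding and chaperone partners, of which 7 of 8 were in the tables; A1cf, the complementation factor in the gut, is not in them. Only Dnajb11 among the 7 passed in any founder or cross. Dnajb11 encodes an ER-resident DnaJ chaperone also isolated as an APOBEC1-binding protein, and its log2 change was between 0.73 and 1.29 in founders and between 0.91 and 1.07 in crosses, for example 1.03 (SE 0.07, adjusted p = 2.46e-08) in B6 and 1.29 (SE 0.14, adjusted p = 0.000419) in WSB. Rbm47, the RNA-binding protein that can stand in for A1cf, had values of 0.503 to 3.85 in founder libraries and a mean change of -0.11. The partners' median change was -0.00 in founders and 0.15 in crosses, with Hnrnpab lowest in founders at -0.28.

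Transcripts known to be edited by APOBEC1 showed no change past both thresholds (8 tested in each set, median change -0.05 in founders and -0.14 in crosses, lowest adjusted p of the list 0.000866 for Serinc1, whose founder changes ran from 0.19 to 0.53). Apob, the classical target, averaged a change of -0.43 in founders and was rare in fibroblasts, at most 6.65 in any founder library. In CAST it was lower still, with a control mean of 0.279 against 1.25 to 4.89 in the other strains (log2 difference -3.01, SE 0.40, adjusted p = 1.02e-06). Editing itself was not measured in these tables.

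The ADAR enzymes, which convert adenosine to inosine in RNA, moved apart from one another. Adarb1 was lowered in PWK (-0.83, SE 0.16, adjusted p = 0.00142) and WSB (-1.34, SE 0.20, adjusted p = 0.00249) and its change was below 0 in all 13 genotypes, from -1.34 to -0.23. Adar, at a mean change of 0.17 in founders, and Adarb2 did not pass. The median of the 3 was -0.17 in founders and -0.11 in crosses.

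Of 9 retrovirus restriction factors that stand beside APOBEC3, 3 were lowered in founders, 4 in crosses and 1 induced, with median changes of -0.39 and -0.22. Trim25, a ubiquitin ligase of the RIG-I and ZAP pathways, was lowered in B6 (-0.60, SE 0.11, adjusted p = 0.000564), PWK (-0.77, SE 0.12, adjusted p = 0.000337) and xNOD (-0.84, SE 0.13, adjusted p = 0.00756). Mov10, an RNA helicase, was lowered in PWK (-0.69, SE 0.12, adjusted p = 0.000904) and x129 (-0.70, SE 0.11, adjusted p = 0.00198), Ifitm2 in the same genotypes and Ifitm3 in x129 alone. Zc3hav1, the zinc-finger antiviral protein ZAP that binds CpG-rich viral RNA, went the other way, with a change of 1.25 in CAST (SE 0.13, adjusted p = 0.000402) and 1.49 in PWK (SE 0.09, adjusted p = 8.98e-08).

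NF-kB subunits had the highest median of these lists outside the ER stress genes, 0.78 in founders and 0.66 in crosses, and 4 of 5 passed in each set. Relb passed in 5 founders and 4 crosses, with changes from 1.03 in 129 to 1.91 in PWK, and in CAST it rose by 1.08 (SE 0.13, adjusted p = 0.00124). Nfkb1 passed in B6 (0.68), NOD (1.06), PWK (0.98), x129 (0.66) and xCAST (1.13), and Nfkb2 in B6 (0.69), NOD (0.86), PWK (0.98) and xCAST (1.00). Rel rose by 0.79 in B6 and by 1.40 in x129, and Rela, at 0.09 to 0.53 in founders, did not reach 1.5-fold.

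**Figure D4:**
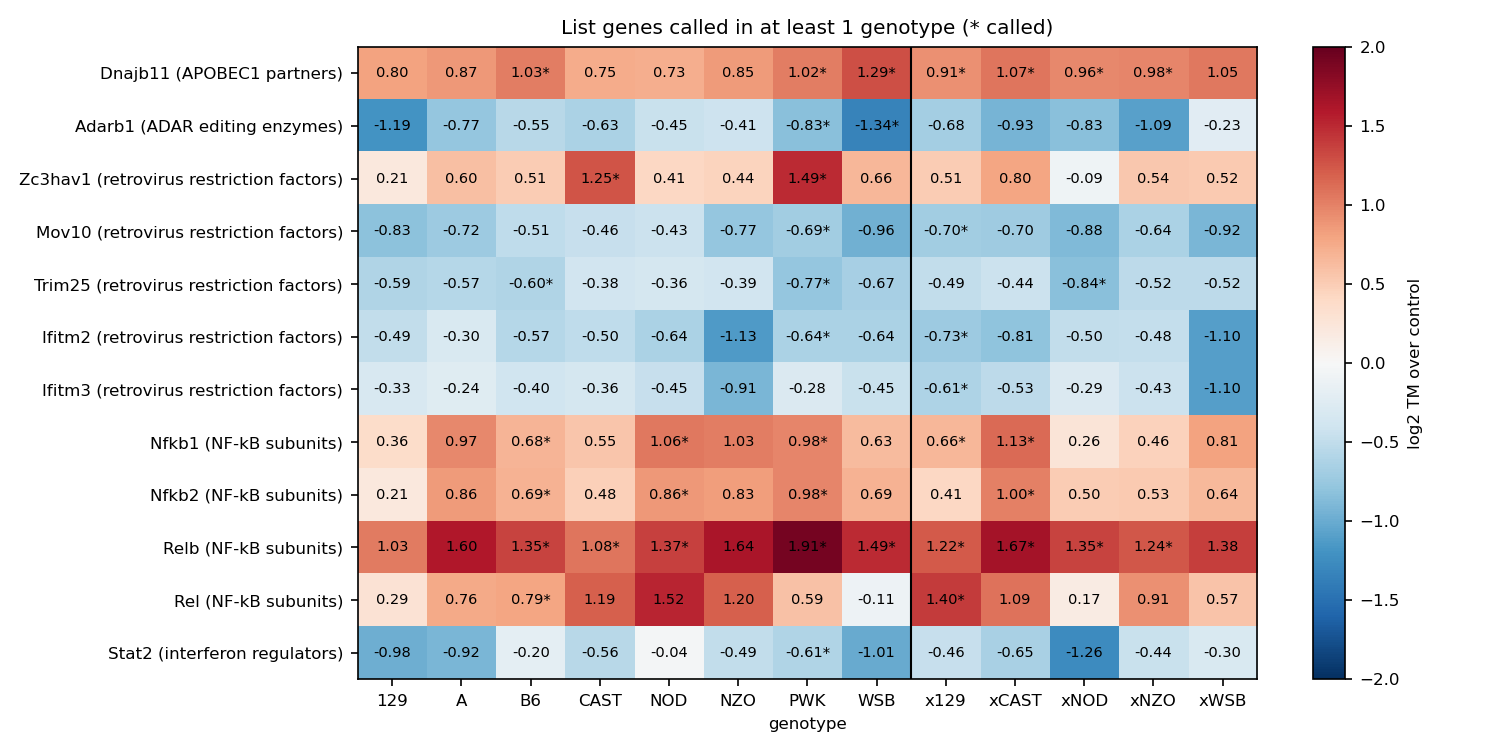
Log2 change from control to TM (colour scale) of the list genes that passed the test in at least 1 genotype (rows, with their list in brackets) in each founder strain and F1 cross (columns), with an asterisk where a gene passed. Relb passed in 5 founders and 4 crosses, and Zc3hav1 passed in CAST and PWK.

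Among 11 interferon regulators in founders only Stat2 passed, lowered by 0.61 on the log2 scale in PWK (adjusted p = 0.00471). The list's median change was 0.10 in founders and 0.05 in crosses, and Ifit1, which passed the filter on low values in 4 founders, had the highest mean change at 0.43. The 9 genes of uracil and base excision repair, which remove the uracil that deaminases leave in DNA, had median changes of -0.02 in founders and 0.05 in crosses, with Polb highest in founders (0.30) and Xrcc1 lowest (-0.13), and none reached both thresholds; the lowest adjusted p of this list in founders was 0.00741, for Tdg. Of marker genes, 2 of 9 myeloid and 1 of 3 epithelial markers were lowered and 1 of 4 endothelial markers induced in some founder, with median changes of -0.47, -0.55 and 0.12 beside -0.33 for the 7 fibroblast markers, and the part of these markers in the Apobec1 change was not tested.

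The TM changes were then compared between strains. The moderated F test of the strain by TM terms (limma over all 40 founder libraries) passed for 0.174% of all genes and for 0 of the 52 list genes, with 6 at an unadjusted p under 0.05, and edgeR on recovered reads also gave 0. When TM libraries were taken as ratios to the median of their controls, a form in which the spread of the controls does not enter, the count was 5 list genes. The share of all genes in that form is not given here, so nothing is read from that count. In crosses the limma F test passed for 0.0547% of genes and for 0 of 51, with 4 at an unadjusted p under 0.05. The edgeR count for crosses is not given here. In control cells, by contrast, 35.8% of genes differed between founder strains, among them 16 of the 52 list genes (32 at an unadjusted p under 0.05; edgeR also 16). They included the editing genes Adarb1, Adarb2 and Khsrp, the edited transcripts Apob, App and Cmtm6, the restriction factors Fv1, Trim25 and Zc3hav1, the repair genes Dut and Ung, the subunit Nfkb2, and Irf1, Irf3 and Usp18. In crosses 10 of 51 did, where 21.4% of all genes differed.

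CAST control cells were compared with the mean of the other founders for the same genes. Of the 52, 6 were higher, where 7.25% of all genes were, and 6 lower, where 9.52% were. The higher ones were the uracil glycosylase gene Ung (1.07, SE 0.24, adjusted p = 0.000913), the dUTPase gene Dut (1.12, SE 0.23, adjusted p = 0.000368), Tdg (0.33), Xrcc1 (0.42), Irf1 (0.79) and App (0.61). The lower ones were Apob, Trim25 (-0.65, SE 0.11, adjusted p = 6.36e-05), Bst2 (-1.12, SE 0.32, adjusted p = 0.00829), Irf3 (-0.88), Irf7 (-1.47) and Usp18 (-1.61). Both counts rest on the pair of CAST controls, with 1 higher gene left without CAST control replicate 1 and 2 lower genes left without replicate 3.

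With TM, 3 list genes were higher in CAST (7.97% of all genes) and 9 lower (10.2%). Zc3hav1 (0.93, SE 0.16, adjusted p = 4e-05), Irf1 (0.63) and App (0.59) were higher. Among the lower ones were the NF-kB subunits Nfkb1 (-0.50, SE 0.11, adjusted p = 0.00114) and Relb (-0.53, SE 0.13, adjusted p = 0.00208), with Ifnar1 (-0.59), Isg15 (-1.69), Bst2 (-1.55), Irf3 (-1.09), Usp18 (-1.33), Trim25 (-0.47) and Apob (-2.63). Without CAST TM replicate 2 the counts were 1 and 5. No list gene passed for its response in CAST (limma, 0 of 52 in either direction, 4 at an unadjusted p under 0.05, edgeR 0). Over all genes 0.00758% passed as higher and 0.00758% as lower, so the list was near the background.

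The cross xCAST shared part of this. In control cells Dut (0.82, SE 0.19, adjusted p = 0.00209) and Ung (1.04, SE 0.17, adjusted p = 7.65e-05) were higher than in the other crosses and Trim25 (-1.22, SE 0.13, adjusted p = 9.9e-08) and Ifnar2 (-0.36, SE 0.08, adjusted p = 0.00294) lower, against 7.44% and 6.02% of all genes. With TM 6 were higher (10.8% of all genes), namely Dut, App, Irf1, Nfkb2, Samhd1 and Zc3hav1, and 4 lower (8.42%), namely Trim25, Ifnar2, Irf9 and Mbd4. Without xCAST control replicate 2 the control counts were 0 and 1, and without xCAST TM replicate 1 the TM counts were 3 and 2. Among them Nfkb2 was higher with TM by 0.46 (SE 0.10, adjusted p = 0.00131), and the responses of list genes in xCAST did not pass, where 0.0547% of all genes were higher and 0% lower (limma, 0 of 51, 6 at an unadjusted p under 0.05, edgeR 0).

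In xWSB control cells, where Apobec1 was high, 7 list genes were higher and 5 lower than in the other crosses, a comparison chosen after seeing the data in which 8.54% and 11.9% of all genes passed. The higher ones were Zc3hav1 (1.01, SE 0.12, adjusted p = 2.98e-07), Bst2 (1.01), Nfkb1 (0.58, SE 0.09, adjusted p = 9.05e-06), Ifnar2 (0.65), Irf9 (0.43), Usp18 (1.44) and Cmtm6 (0.35). The lower ones included Ung (-1.38, SE 0.15, adjusted p = 8.54e-08), Dut (-0.93), Xrcc1 (-0.37) and Casp6 (-0.54). The ER stress genes Ddit3 (1.14, SE 0.14, adjusted p = 1.03e-06) and Hspa5 (0.41, SE 0.10, adjusted p = 0.0021) were also higher in untreated xWSB cells.

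Genes near the deaminases were examined for differences along the chromosome. Of the genes whose annotated start lies within 250 kb of that of Apobec1 or Apobec3, 19 are in the tables, 4 by Apobec1 (Mfap5, Nanog, Slc2a3 and Foxj2) and 15 by Apobec3. The germ-cell genes Gdf3 and Dppa3, which lie nearer to Apobec1, are not in them. In control cells 3 of the 19 differed in CAST, 3 in xCAST and 3 in xWSB. Over all genes 7.25% were higher and 9.52% lower in CAST, 7.44% and 6.02% in xCAST, and 8.54% and 11.9% in xWSB, so these counts are near the background.

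Mfap5, a microfibril protein gene at chr6:122505845-122529290, was low in CAST and high in xWSB, as Apobec1 was with TM. Its control means were 12.6 in CAST against 34.3 to 62.5 in the other founders (log2 difference -2.06, SE 0.15, adjusted p = 7.9e-12), and 130 in xWSB against 24.8 to 55.5 in the other crosses (1.77, SE 0.15, adjusted p = 2.07e-09). It did not pass for a TM change in any genotype, and in xCAST its control mean of 46.7 lay inside the range of the other crosses. Slc2a3, a glucose transporter gene on the other side, was lower in xWSB (-2.01, SE 0.29, adjusted p = 8.29e-06). The part of the region in these levels was not tested. Nanog, at chr6:122707489-122714633, was higher in CAST (3.51, SE 0.60, adjusted p = 3.88e-05) and xCAST (4.20, SE 0.54, adjusted p = 3.12e-06); it has near-identical pseudogene copies whose reads the counting could have assigned to it, so its value is uncertain.

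By Apobec3, Cby1, at chr15:79659199-79667660, was higher in CAST (0.83, SE 0.17, adjusted p = 0.000377) and in xCAST (0.60, SE 0.16, adjusted p = 0.00877), as Apobec3 was. Syngr1, rare at group means of 0.0855 to 4.90, was lower in xCAST (-2.34, SE 0.51, adjusted p = 0.00156) and higher in xWSB (1.91, SE 0.44, adjusted p = 0.00168). In B6, where Apobec3 was lowest, none of the 19 passed in control cells, against 2.67% higher and 2.76% lower of all genes. By limma 5 had an unadjusted p under 0.05, and the edgeR count is not given here. Pdgfb, a growth factor gene at chr15:79995874-80014977, was induced by TM in A (2.37, SE 0.20, adjusted p = 0.00134), B6 (1.83), CAST (1.23), PWK (1.21), x129 (1.58), xCAST (2.08), xNOD (0.99) and xNZO (1.03), beside an Apobec3 that stayed level. Npcd was lowered in B6, PWK and WSB by 1.14 to 2.05 on the log2 scale. It overlaps Nptxr and Cbx6 on the same strand, so reads assigned to Npcd could belong to those genes.

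**Figure D5:**
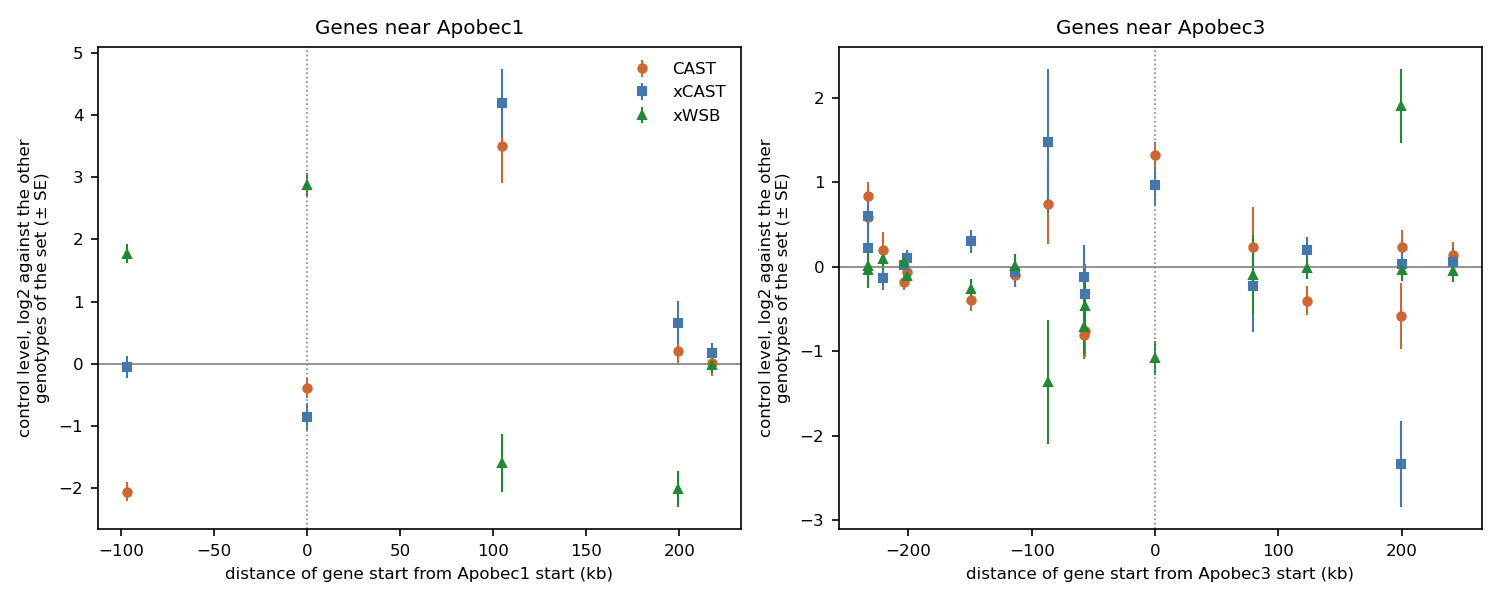
Control level of Apobec1, Apobec3 and the genes around them in CAST, xCAST and xWSB as a log2 difference (± SE) from the mean of the other genotypes of the same set (vertical axes), by the distance of the gene start from that of the deaminase in kb (horizontal axes). Mfap5 lies at -2.06 in CAST and 1.77 in xWSB, where Apobec1 lies at -0.38 and 2.88.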

How the data were processed

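RNA of 68 MEF libraries (13 genotypes, control or TM) was made into single-end mRNA-seq libraries. Per the study's methods, the authors aligned reads to strain-specific GRCm38 genomes with TopHat 1.4.1, scaled them by the TMM method of edgeR, dropped those that clustered away from their treatment and repeated the scaling. FastQC and Trimmomatic are named too in the submitters' processing notes. The counting tool and annotation are not given in the sources used here. Each deposited value is a gene's signal as normalized by the authors. The values are named FPKM, but they are whole multiples of 1 step per library shared by all genes, that is, TMM-adjusted CPM that gene length does not enter. Whole counts could be recovered from the deposited values of 66 libraries (100% within 0.05 of a whole read). PWK TM replicate 2 and WSB TM replicate 1 came out whole too, but their step is so near 0.1 that rounding could give the same, and they were left out of edgeR. Recovered depth was 7091923 to 21530282 reads on genes in founders (median 11927033) and 6442976 to 29528457 in crosses (median 13025117), so a level of 1 stands for few reads and carries large counting error. Among the F1 values, 3 lines that name no gene held 15.5% to 24.1% of the total and were left out. Founder (13197 genes) and F1 (12803 genes) tables were scaled separately, and levels were compared within a set.

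The members and the gene lists were chosen with earlier results of these data known. Values were tested as log2(value + 0.1) with limma 3.58.1 (eBayes with trend, R 4.3.3), within each genotype over genes at 0.5 or more in at least 2 libraries, and across a set for strain by TM terms, control levels and 1 genotype against the mean of the others, with Benjamini-Hochberg adjustment over all genes at 0.01 and, for TM changes, at least 1.5-fold. Per the study's methods the cells of each genotype were pooled from the same litter, so p-values measure only the spread between these libraries. Named genes were the list genes that passed, the highest and lowest mean TM change in founders per list, the 5 genes most alike by Pearson's r among those with a mean of at least 2, and genes within 250 kb. Replicate numbers are shared between groups in the labels, but same-numbered libraries deviated together by r = -0.64 to 0.49 over 29 pairs, above 0.1 in 11, and were not treated as pairs. Alternatives tried were no filter or one on a mean of at least 2, the pseudocount set to 1, median-of-ratios scaling, no trend, edgeR 4.0.16 quasi-likelihood on recovered reads, 1 fit over the set, an FDR of 5%, the median control as reference, a replicate block and leaving out each library. Comparisons of B6 and xWSB, the F1 tests across crosses and the scale for crosses beside parents were chosen after seeing the data. The code was tested on simulated data. Gene positions are from GENCODE vM21. Some list genes are counted but not reported by name here.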

Additional observations from a re-analysis of the deposited data

Results flagged for a closer look

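For Apobec3 the TM libraries lay above the control libraries in NZO (log2 change 0.27, SE 0.19) and WSB (0.19, SE 0.27) and below them in CAST (-0.21, SE 0.16), each without overlap. Of all genes, 19% lay above without overlap in NZO and 24.9% in WSB, and 31.4% lay below in CAST. The difference between these strains was not tested.

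Mmp9, the gelatinase gene chosen for its likeness to Apobec3 over these founder groups, differed between founder strains in its TM change (limma, strain by TM terms, adjusted p = 0.0046). Mmp9 rose with TM by 1.35 on the log2 scale in CAST (SE 0.15), by 1.16 in NOD (SE 0.14) and by 1.05 in PWK (SE 0.14). In 129 its change was -0.14 (SE 0.18), where its control mean of 33.7 was the highest of the founders. In crosses, the TM change of Mmp9 was larger in xCAST than in the mean of the others by 1.83 (SE 0.29, adjusted p = 0.00416), from a control mean of 1.25 against 3.16 to 6.13 in the others.

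Pdgfb, which lies near Apobec3, differed between founder strains in its TM change (limma, strain by TM terms, adjusted p = 0.0015). It ranged from 0.40 (SE 0.18) in 129 and 0.71 (SE 0.30) in WSB to 2.37 (SE 0.20) in A.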

How the results depend on the processing

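The direction of the CAST and xCAST differences in Apobec1 and Apobec3 that exceeded their standard errors stayed the same under every alternative run. With a pseudocount of 1 the CAST difference in Apobec1 was -1.43 with TM and -1.16 in the response, in place of -1.83 and -1.45, since the larger pseudocount shrinks changes of genes this low; leaving out single libraries gave -1.97 to -1.70 and -1.58 to -1.31. The Apobec1 response of xCAST against the other crosses ran from -0.09 to 0.39 without single libraries. List genes lowered in at least 1 founder numbered 3 with no trend and 3 in 1 fit over the set, in place of 5. In crosses, an FDR of 5% gave 8 induced genes in place of 5 and 9 lowered in place of 4, and no trend 2 lowered. With the median control as reference 5 list genes differed between founders in their TM change, in place of 0. The shares of all genes under these alternatives are not given here, so nothing is read from the counts. The cause of these moves was not tested, beyond the looser threshold itself. In leave-one-out fits, lowered genes numbered 4 to 9 in founders and 2 to 8 in crosses. CAST control counts were 1 to 8 higher and 2 to 6 lower, CAST TM counts 1 to 4 and 5 to 11, xCAST control counts 0 to 3 and 1 to 3, and xCAST TM counts 3 to 8 and 2 to 5; where 1 library was left in a group it was taken to vary like the others. With the replicate number as a block the responses of Apobec1 and Apobec3 differed by -1.54 and -0.12 in CAST and by 0.06 and -0.14 in xCAST, and the block changed no count of list genes (6 induced and 5 lowered in founders, 5 and 4 in crosses); it could not be fitted within B6 or CAST or for contrasts of levels. Median-of-ratios scaling moved the median of all genes by -0.03 to 0.03. Of 1676 values under an alternative, 1631 stayed within the limits set and 45 moved. Apobec1 in control cells and in CAST rests on 8 to 62 reads a library outside xWSB, which limits the precision of its changes.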
